A study of Mus musculus with 5 samples.

Results

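The axon guidance ligands and receptors described here were the Eph receptors, ephrins, semaphorins of classes 3 to 7, Slits, Robo receptors, netrins and Unc5 receptors. They were chosen by gene symbol among protein-coding genes on mouse chromosomes 1 to 19, which gave 56 of 21281 genes, 22 of them receptors and 34 ligands. H3K27me3, the histone mark deposited by Polycomb Repressive Complex 2 (PRC2), had been mapped in mouse embryonic fibroblasts (MEFs) by sequencing of immunoprecipitated chromatin (ChIP-Seq), and the deposited lists of enriched intervals were read here. The series held 5 libraries, 1 per group and with no replicates. All groups were derived from MEFs of a single embryo that carried loxP sites in the PRC2 subunit gene EED. The K27M cells stably expressed H3.3K27M, the histone mutant of midline glioma, from a lentivirus. The EZHIP cells expressed human EZHIP, the PRC2 inhibitor of PFA ependymoma, in the same way. The K27R cells expressed H3.3K27R, which has arginine at the residue that is methionine in K27M, and their list served as the reference. The parental Control cells and the single EEDnull clone were not analysed here.

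The autosomal lists held 12093 K27R intervals over 497.0 Mb, 3338 K27M intervals over 42.4 Mb and 4890 EZHIP intervals over 36.1 Mb. They gave positions without scores or read counts, so the depth was unknown, and a gene outside an interval may have held H3K27me3 below the threshold of the caller. With 1 library per group no test between groups was possible, and every difference describes these libraries. As a check of the cell type, K27R intervals held the start site of 1 of 11 fibroblast genes (Pdgfra, which was in all lists), where all genes had 28.2%. They held those of 6 of 6 neural, 3 of 3 endoderm, 3 of 3 epithelial, 2 of 2 blood and 1 of 3 muscle genes, with Myf5 and Myog of muscle in no list. Of 4 blood genes listed, Gata1 and Spi1 were not found under these symbols among the genes counted. Most genes of the whole table also lay outside the intervals.

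Growing axons are steered by ligands that attract or repel them. Ephrins are membrane-bound ligands of Eph receptor tyrosine kinases, Slits repel through Robo receptors, netrins act through Dcc and the repulsive Unc5 receptors, and semaphorins signal largely through plexins. Many of these genes are used outside the nervous system, in vessels, epithelia and mesenchyme. PRC2 keeps developmental genes silent in cells that do not use them, and it is recruited to promoters rich in CpG dinucleotides, from which H3K27me3 spreads into broad domains.

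The start sites of the members fell into 5 classes. A start site is the 5′ end of the gene record, and it is called kept when its base lay in an interval of K27R and also in an interval of K27M or EZHIP. In all 3 lists were 11 members, Epha10, Epha8, Ephb1, Sema5b, Sema6a, Sema6b, Slit1, Slit3, Robo3, Ntn1 and Unc5a. Epha5, Epha6, Efna3 and Unc5d were kept in K27M only, and Sema6d in EZHIP only. In K27R only were 14 members, Epha3, Epha4, Ephb2, Ephb4, Ephb6, Efna1, Sema4f, Sema4g, Sema5a, Sema7a, Robo1, Robo2, Robo4 and Unc5b. The remaining 26 were in no list, and these were Epha1, Epha2, Epha7, Ephb3, Efna2, Efna4, Efna5, Efnb2, Efnb3, Sema3a to Sema3g, Sema4a to Sema4d, Sema6c, Slit2, Ntn3, Ntn4, Ntn5 and Unc5c.

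The classes were called from interval positions alone, without the sequence. The promoter sequences below are of members picked by interval width from the kept and K27R-only classes. Each covers 250 bases before to 50 bases after the start site in the NCBIM37 (mm9) sequence, written 5′ to 3′ along the gene, with every CG dinucleotide in capitals. The first 6 are the member of each family that was kept in both lists with the widest K27M interval, leaving out families with none.
Epha8, chr4:136512682-136512981, minus strand: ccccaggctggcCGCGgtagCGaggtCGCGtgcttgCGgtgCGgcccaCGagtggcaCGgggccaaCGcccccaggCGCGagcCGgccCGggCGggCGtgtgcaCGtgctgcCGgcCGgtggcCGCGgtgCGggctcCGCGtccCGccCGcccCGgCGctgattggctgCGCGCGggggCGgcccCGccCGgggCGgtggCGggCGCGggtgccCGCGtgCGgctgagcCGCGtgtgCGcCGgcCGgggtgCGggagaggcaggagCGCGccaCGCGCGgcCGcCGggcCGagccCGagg
Sema5b, chr16:35540981-35541280, plus strand: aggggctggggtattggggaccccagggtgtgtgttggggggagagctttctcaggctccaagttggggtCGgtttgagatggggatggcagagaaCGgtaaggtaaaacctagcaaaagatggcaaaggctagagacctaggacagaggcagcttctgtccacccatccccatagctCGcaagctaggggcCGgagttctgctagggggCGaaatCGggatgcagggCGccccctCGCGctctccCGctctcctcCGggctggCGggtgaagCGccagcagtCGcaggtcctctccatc
Slit1, chr19:41818106-41818405, minus strand: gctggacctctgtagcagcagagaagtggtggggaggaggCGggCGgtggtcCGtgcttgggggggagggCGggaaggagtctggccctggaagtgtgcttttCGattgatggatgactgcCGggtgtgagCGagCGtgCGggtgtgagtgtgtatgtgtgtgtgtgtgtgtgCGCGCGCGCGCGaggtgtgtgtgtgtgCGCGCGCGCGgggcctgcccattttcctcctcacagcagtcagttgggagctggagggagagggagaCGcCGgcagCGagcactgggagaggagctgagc
Robo3, chr9:37240711-37241010, minus strand: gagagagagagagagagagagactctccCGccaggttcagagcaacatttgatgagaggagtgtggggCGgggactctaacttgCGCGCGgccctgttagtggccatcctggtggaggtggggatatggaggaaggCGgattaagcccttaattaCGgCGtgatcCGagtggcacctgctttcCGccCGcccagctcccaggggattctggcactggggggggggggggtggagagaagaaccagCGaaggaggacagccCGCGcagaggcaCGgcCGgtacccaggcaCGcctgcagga
Ntn1, chr11:68214276-68214575, minus strand: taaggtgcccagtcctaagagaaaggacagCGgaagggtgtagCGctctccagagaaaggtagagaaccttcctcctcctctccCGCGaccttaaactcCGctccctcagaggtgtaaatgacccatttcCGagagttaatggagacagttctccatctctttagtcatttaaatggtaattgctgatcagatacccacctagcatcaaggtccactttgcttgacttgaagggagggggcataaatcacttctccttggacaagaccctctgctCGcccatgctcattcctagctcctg
Unc5a, chr13:55050522-55050821, plus strand: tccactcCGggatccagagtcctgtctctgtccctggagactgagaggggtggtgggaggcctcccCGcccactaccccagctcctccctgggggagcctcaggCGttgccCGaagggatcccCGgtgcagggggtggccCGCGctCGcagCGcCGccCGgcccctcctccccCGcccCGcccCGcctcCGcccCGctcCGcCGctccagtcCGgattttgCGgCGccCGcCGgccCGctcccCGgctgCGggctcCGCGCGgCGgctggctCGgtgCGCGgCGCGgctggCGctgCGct
The next 2 are the members with the widest K27R intervals among those whose start site was in K27R only.
Unc5b, chr10:60294280-60294579, minus strand: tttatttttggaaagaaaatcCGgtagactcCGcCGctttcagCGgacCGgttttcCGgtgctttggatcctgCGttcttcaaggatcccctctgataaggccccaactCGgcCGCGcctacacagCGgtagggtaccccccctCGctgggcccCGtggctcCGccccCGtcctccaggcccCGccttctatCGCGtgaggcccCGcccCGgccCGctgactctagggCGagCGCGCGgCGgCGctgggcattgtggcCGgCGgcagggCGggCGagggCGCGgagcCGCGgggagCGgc
Sema5a, chr15:32174318-32174617, plus strand: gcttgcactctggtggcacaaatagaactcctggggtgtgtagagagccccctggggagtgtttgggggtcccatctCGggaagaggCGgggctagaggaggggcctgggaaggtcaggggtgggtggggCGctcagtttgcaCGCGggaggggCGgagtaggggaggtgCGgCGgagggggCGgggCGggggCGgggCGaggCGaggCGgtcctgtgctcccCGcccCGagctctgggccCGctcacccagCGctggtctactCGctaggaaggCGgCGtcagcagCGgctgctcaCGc
These windows held 56 CG in Epha8, 14 in Sema5b, 23 in Slit1, 17 in Robo3, 7 in Ntn1 and 37 in Unc5a. Those of Unc5b and Sema5a held 36 and 23, and these were picked for their K27R width. The motif searched was CG, which reads the same on either strand, and 95.1% of all 21281 promoter windows of this length held at least 1. The median was 12 CG over all genes, 17 over the 56 members, 23 over the 11 members in all lists and 17.5 over the 14 in K27R only, where the lowest was 3.

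The start site was in a K27R interval for 30 of 56 members (53.6%, 95% Clopper-Pearson interval 39.7 to 67.0%), against 28.2% of all genes. In K27M it was so for 15 members (26.8%, interval 15.8 to 40.3%), against 8.93% of all genes. EZHIP intervals held 12 start sites (21.4%, interval 11.6 to 34.4%), against 7.96%. These intervals treat genes as independent draws and cover counting error only. Every K27M or EZHIP interval at a member's start site coincided with a K27R interval there. This was general, as it held for 1897 of 1901 K27M and 1689 of 1693 EZHIP start sites over all genes.

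Of the 30 members marked in K27R, 15 were kept in K27M (50%, interval 31.3 to 68.7%), against 31.6% of all genes marked in K27R. EZHIP kept 12 (40.0%, interval 22.7 to 59.4%), against 28.1% of all genes. Both lists kept 11 (36.7% against 24.1%), and neither kept 14 (46.7% against 64.4%). Kept in K27M only were 4 members (13.3%) and in EZHIP only 1 (3.33%), where the shares of all genes were 7.48% and 4.01%. The interval of the members' share included the share of all genes in EZHIP, and in K27M its lower bound lay just under that share. The plot of start-site shares shows the members beside their subgroups and all genes.

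**Figure D1:**
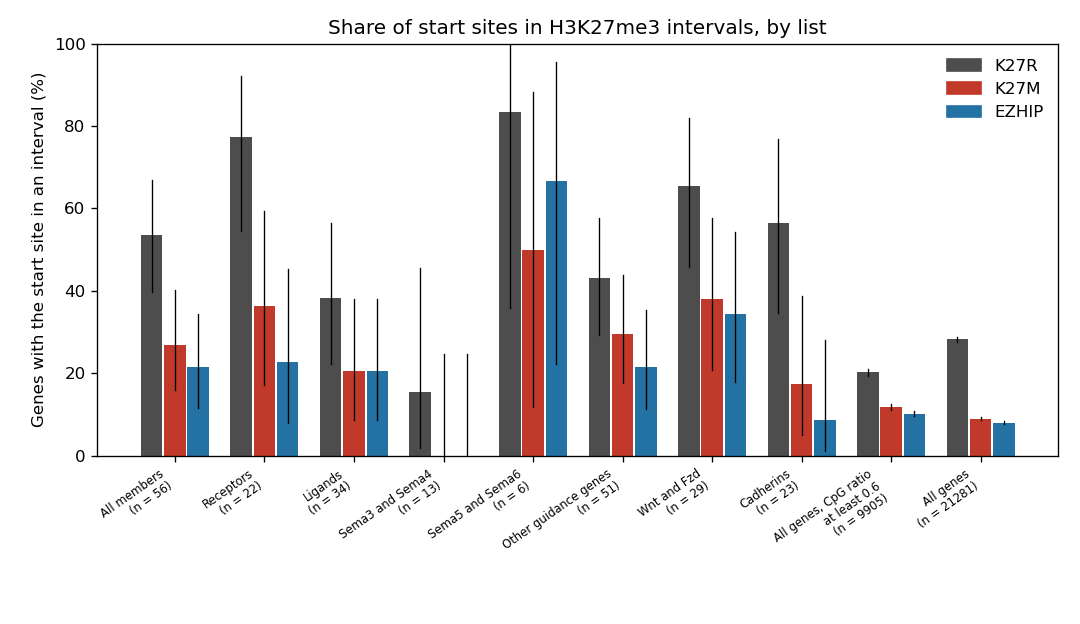
Percent of genes with the start site in a K27R, K27M or EZHIP interval, for the 56 members, their subgroups and comparison sets; vertical lines are 95% Clopper-Pearson intervals (counting error only), and n is the number of genes. The members stood at 53.6%, 26.8% and 21.4%, the 22 receptors at 77.3% in K27R and the 34 ligands at 38.2%.

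A larger share of the receptors than of the ligands was marked in K27R. The start site was in a K27R interval for 17 of 22 receptors (77.3%, interval 54.6 to 92.2%) and for 13 of 34 ligands (38.2%, interval 22.2 to 56.4%), and these intervals overlapped narrowly. The ligands include 13 semaphorins of classes 3 and 4, of which 2 were marked. Epha8 and Ephb2 shared a K27R interval, as did Robo3 and Robo4. The median observed to expected CpG ratio at the start site was 0.721 in receptors and 0.645 in ligands. The part of family, shared intervals and CpG in this difference was not tested. K27M kept 8 of the 17 marked receptors (47.1%, interval 23.0 to 72.2%) and 7 of the 13 marked ligands (53.8%, interval 25.1 to 80.8%). EZHIP kept 5 of the receptors (29.4%, interval 10.3 to 55.96%) and 7 of the ligands (53.8%). These intervals overlapped widely, so no difference in the share kept could be read from them.

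Among Eph receptors, K27R held 10 of 14 start sites, K27M 5 and EZHIP 3. Of the 9 EphA receptors 6 were marked in K27R, of which K27M kept 4 and EZHIP 2, and of the 5 EphB receptors 4 were marked in K27R and 1 in each of the other lists. Epha8 (ENSMUSG00000028661.8, chr4:136485334-136512731), a receptor studied mainly in the developing nervous system, lay in a K27R interval of 157.6 kb. Its K27M interval was 128.6 kb, the widest over any member's start site in that list, and its EZHIP interval was 41.2 kb. K27M thus covered 100% of the Epha8 gene body. EZHIP covered 76.6% of it, counting a further interval of 6.4 kb inside the gene.

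The start site of Epha10 (chr4:124558143-124595044), an Eph receptor that lacks kinase activity, lay in intervals of 77.4 kb (K27R), 32.4 kb (K27M) and 8.8 kb (EZHIP). A further EZHIP interval of 15.8 kb lay inside Epha10, and K27M covered 77.7% and EZHIP 61.4% of its body. Ephb1 (chr9:101824458-102257023), a receptor of B-class ephrins, had 255.4 kb (K27R), 9.6 kb (K27M) and 5.8 kb (EZHIP). The residual intervals of Ephb1 were placed over its first exon, from 2.58 kb upstream to 7.02 kb downstream of the start site in K27M and from 0.177 kb upstream to 5.62 kb downstream in EZHIP. Both therefore sat on the promoter within a K27R domain that reached 226.4 kb upstream. With residual intervals elsewhere in it counted, that domain held 19.6 kb of K27M and 18.6 kb of EZHIP.

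Epha5 and Epha6, receptors of A-class ephrins, were kept in K27M but not in EZHIP. Epha5 (chr5:84486816-84846407) had 20.2 kb in K27R and 4.4 kb in K27M. The nearest EZHIP interval was 4103 kb away from its start site. Epha6 (chr16:59653309-60605357) had 29.0 kb in K27R and 2.8 kb in K27M, the narrowest K27M interval over a member's start site. A 1.2 kb EZHIP interval lay in an intron of Epha6, 924.8 kb downstream of the start site, where K27M had none.

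The other marked Eph receptors were in K27R only. Ephb2 (chr4:136203454-136391903) shared the 157.6 kb K27R interval of Epha8 (chr4:136387801-136545400, which held the start sites of 5 genes). The K27M interval over Epha8 ended 16.9 kb short of the Ephb2 start site, and the nearest EZHIP interval was 9.9 kb from it. Epha3, Epha4, Ephb4 and Ephb6 lay in K27R intervals of 22.6, 12.4, 25.8 and 40.0 kb. Ephb3 missed K27R by 1.83 kb, whereas Epha1, Epha2 and Epha7 were 113.3, 332.8 and 2923 kb away from any K27R interval.

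All 4 Robo receptors were marked in K27R, and only the start site of Robo3 was kept. Robo3 (chr9:37223254-37240760), which in commissural neurons modulates the response to Slits before midline crossing, lay in intervals of 108.2 kb (K27R), 19.2 kb (K27M) and 13.6 kb (EZHIP). Robo4 (chr9:37209482-37221608), the endothelial member, is the neighbour of Robo3 and lay in the same K27R interval (chr9:37183401-37291600). Its start site was 3.72 kb from a K27M interval and 4.32 kb from an EZHIP interval, each of which lay inside the gene and covered 56.1% and 41.2% of its body. The Robo4 promoter was the poorest in CpG of the marked members, with an observed to expected CpG ratio of 0.163, and that of Robo3 was 0.536.

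Robo1 and Robo2, the widely expressed Slit receptors, lay in K27R intervals of 14.0 and 11.6 kb that covered 0.263% and 2.05% of their long gene bodies. The nearest residual interval was 631.8 kb from the Robo1 start site and 2380 kb from that of Robo2.

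Among Unc5 receptors, which mediate repulsion by netrin, K27R marked 3 of 4 start sites, K27M 2 and EZHIP 1. Unc5a (chr13:55050772-55107379) had the widest K27R interval of any member, 326.0 kb, with 20.4 kb in K27M and 24.2 kb in EZHIP at the start site. Its gene body held 3 EZHIP intervals and 1 of K27M, covering 38.9% and 25.5%. Unc5d (chr8:29757189-30329810) had 8.0 kb in K27R and 7.2 kb in K27M, so that K27M covered 90.0% of the K27R interval, yet the nearest EZHIP interval was 1851 kb away. Unc5c was in no list.

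Unc5b (chr10:60225358-60294329), known for its role in endothelial cells, had the second-widest K27R interval, 256.2 kb, and its start site was kept in neither list. A 1.8 kb K27M interval began 0.529 kb downstream of the start site, in an intron. No EZHIP interval lay within 130.9 kb of the start site. The plot of start-site widths sets Unc5b beside Unc5a, with similar K27R widths and an opposite outcome.

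**Figure D2:**
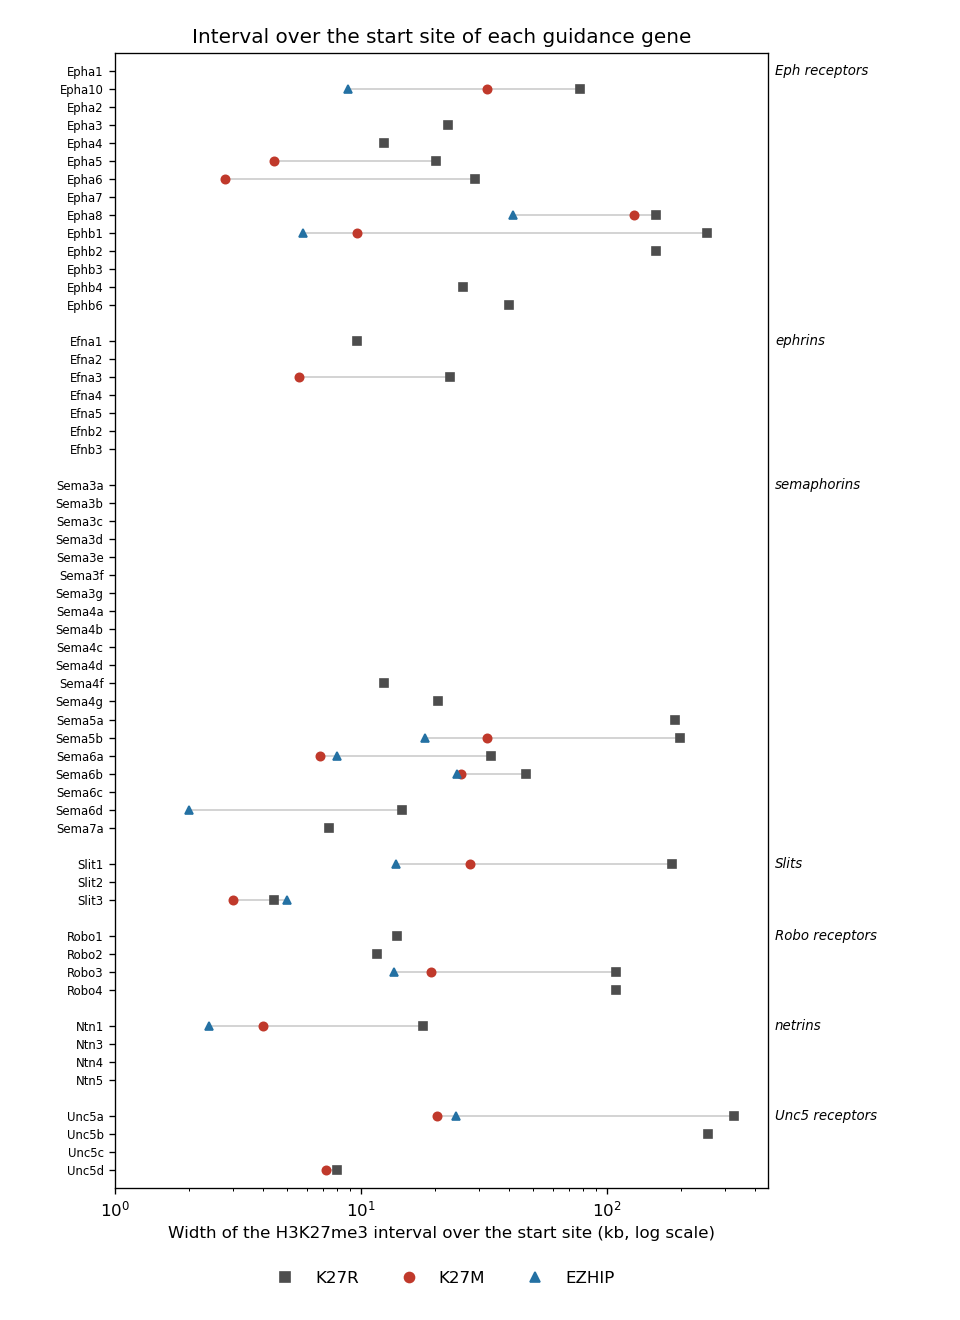
Width (kb, log scale) of the interval over the start site of each of the 56 members in K27R, K27M and EZHIP; grey lines join the lists of a member, and an empty row means that no list had an interval there. Unc5a and Unc5b had K27R widths of 326.0 and 256.2 kb, and of these only Unc5a had a K27M (20.4 kb) or EZHIP (24.2 kb) interval; classes 3 and 4 semaphorins had 2 marked rows of 13.

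Among ephrins, K27R held 2 of 7 start sites (28.6%, interval 3.67 to 71.0%), a share like the 28.2% of all genes, and K27M held 1 and EZHIP 0. Efna1, Efna3 and Efna4, which bind EphA receptors, lie next to each other on chromosome 3 and were each in a different class. Efna3 (chr3:89117821-89126887) had 23.0 kb in K27R and 5.6 kb in K27M, and a 4.4 kb EZHIP interval began 0.487 kb inside the gene. Efna1 had a K27R interval of 9.6 kb, and the nearest residual interval was 36.3 kb away. Efna4 was in no list, 7.15 kb from the nearest K27R interval.

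Efna2 shows how much the start-site rule can turn on a few bases. Its K27R interval of 39.2 kb began 0.374 kb inside the gene and covered 96.4% of the gene body, so that it counted as unmarked at the start site. At its 3′ end, an interval of 2.2 kb in K27M and 2.0 kb in EZHIP covered the last 0.155 kb of the gene. The B-class ephrins on autosomes, Efnb2 and Efnb3, were in no list.

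Semaphorins are given by class, with few genes in each. The secreted class 3 semaphorins, known as neuropilin ligands, had 0 of 7 start sites in any list, and for Sema3d a 2.2 kb K27R interval began 0.435 kb inside the gene. Class 4, membrane proteins with roles in immunity and vessels, had 2 of 6 in K27R (Sema4f, 12.4 kb, and Sema4g, 20.6 kb) and 0 in the other lists. Class 5 had 2 of 2 in K27R and 1 in each residual list. Class 6, transmembrane ligands of class A plexins, had 3 of 4 marked in K27R, with 2 kept in K27M and 3 in EZHIP. Taken as pairs of classes, K27R marked 15.4% of the 13 genes of classes 3 and 4 (interval 1.92 to 45.4%) and 83.3% of the 6 of classes 5 and 6 (interval 35.9 to 99.6%). The former interval includes the share of all genes, and the 2 intervals overlap.

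Sema5b (chr16:35541231-35664818) lay wholly inside a K27R interval of 196.6 kb, which held no other protein-coding start site. Its start site was in intervals of 32.4 kb in K27M and 18.2 kb in EZHIP. Further along the gene, K27M had 4 more intervals and EZHIP 5 more, so that 48.7% and 18.3% of the body were covered. Sema5a (chr15:32174568-32626096), its paralogue, had a K27R interval of 188.2 kb at the start site and 8 more over the body, 55.1% in all. The residual lists had over this gene only a 1.2 kb K27M interval, 2.23 kb downstream of the start site.

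Sema6b (chr17:56262508-56279766) was among the members whose K27R interval stayed most covered, with 46.6 kb (K27R), 25.4 kb (K27M) and 24.6 kb (EZHIP) at the start site. These covered 82.4% and 79.8% of its K27R interval when intervals elsewhere in it were added. Sema6a (chr18:47395252-47528524) had 33.6, 6.8 and 8.0 kb in K27R, K27M and EZHIP. Sema6d (chr2:123915705-124493506) had 14.6 kb in K27R and 2.0 kb in EZHIP at the start of its gene record, with none in K27M. At another annotated coding start of Sema6d, K27M had an interval of 5.2 kb and EZHIP one of 7.0 kb, so that by any coding start Sema6d was in all 3 lists. Sema7a, a membrane-anchored ligand with roles in immune cells, had 7.4 kb in K27R, and a 3.2 kb K27M interval began 0.281 kb inside the gene.

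Slit1 and Slit3 were marked in all lists and Slit2 in none. Slit1 (chr19:41674747-41818155) lay wholly inside a K27R interval of 183.8 kb. Over its start site were 27.6 kb in K27M and 13.8 kb in EZHIP, and over its gene body 6 K27M and 9 EZHIP intervals, the most of any member in each list. They covered 43.8% and 33.0% of the body. Slit3 (chr11:34934726-35522009) had the narrowest K27R interval over a start site, 4.4 kb, with 3.0 kb in K27M and 5.0 kb in EZHIP. That EZHIP interval reached 0.6 kb past the K27R interval. It was the 1 residual interval of 35 in EZHIP not wholly inside K27R.

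Of the netrins only Ntn1, the founding attractant of commissural axons, was marked. Ntn1 (chr11:68022866-68214325) had 17.8 kb (K27R), 4.0 kb (K27M) and 2.4 kb (EZHIP). The K27M and EZHIP intervals began at the same base upstream, 0.675 kb before the start site, and ended 3.32 and 1.72 kb into the gene. Ntn3, Ntn4 and Ntn5 were 53.1, 72.6 and 14.0 kb from a K27R interval.

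Widths at the start site were first read in each list over the members marked there, so the sets of members differ between lists. The median K27R interval over a marked member was 27.4 kb (range 4.4 to 326.0 kb, n = 30), against 87.4 kb over all marked genes. For K27M the median was 9.6 kb (range 2.8 to 128.6 kb, n = 15; all genes 11.6 kb), and for EZHIP 11.2 kb (range 2.0 to 41.2 kb, n = 12; all genes 8.4 kb). The members kept in K27M had K27R intervals 4.85-fold wider than their K27M intervals by medians, against 9.38-fold over all genes. For EZHIP the ratio was 8.29, against 15.0. With every residual interval inside it counted, the median share of the K27R interval that was covered was 40.2% in K27M and 30% in EZHIP, against 21.8% and 17.9% over all genes.

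Between the residual lists, K27M was the wider at 8 of the 11 start sites kept in both (72.7%), against 78.5% of 1448 such genes. EZHIP was the wider at Sema6a, Slit3 and Unc5a. The median width at these 11 start sites was 20.4 kb in K27M and 13.6 kb in EZHIP. Over the 1448 genes it was 13.8 and 9.1 kb. The residual intervals reached less far upstream than into the gene, with medians of 2.79 kb upstream and 5.49 kb downstream in K27M and 2.86 and 5.67 kb in EZHIP. In K27R the medians were 15.1 kb upstream and 14.7 kb downstream. These distances are of intervals over a start site only, and they were not measured over all genes. The map of intervals also shows residual intervals further inside genes, as in Slit1 and Sema5b.

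**Figure D3:**
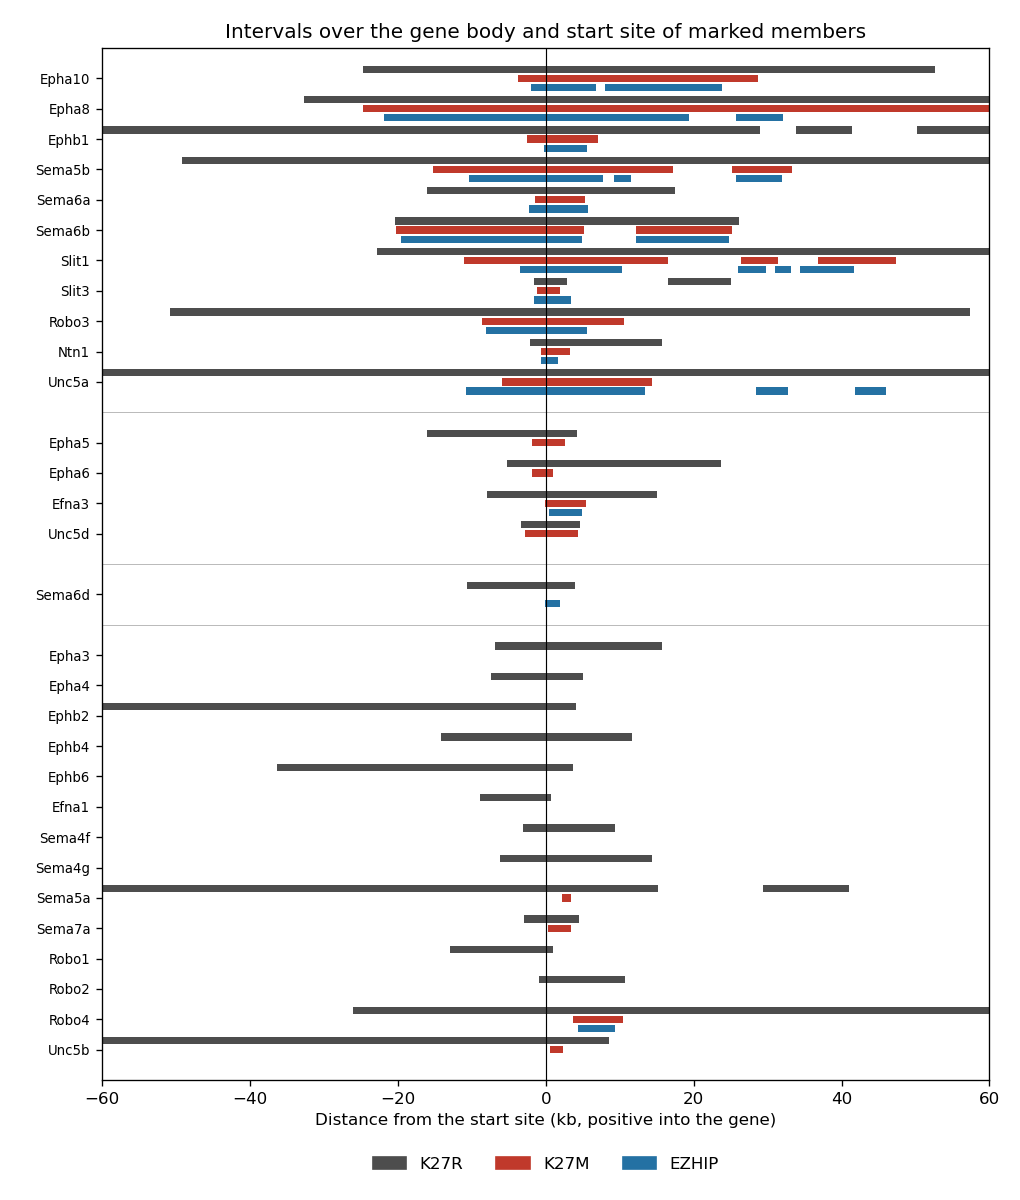
Intervals of K27R, K27M and EZHIP that overlap the start site or body of the 30 members marked in K27R, by distance from the start site (kb, positive into the gene) and drawn to 60 kb on either side; grey rules divide members in all lists, in K27R and K27M, in K27R and EZHIP, and in K27R only. Among the last group, Sema5a, Sema7a, Robo4 and Unc5b had a K27M interval inside the gene, and Robo4 also had an EZHIP interval.

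The gene body was asked as a second measure. It overlapped a K27R interval in 32 members (57.1%), against 34.3% of all genes. K27M overlapped 21 (37.5%), against 11.3%, and EZHIP 16 (28.6%), against 10.9%. The members' genes were long, with a median of 50.2 kb against 15.6 kb over all genes, and a longer body has more room for an overlap. The part of length in these body counts was not tested. The share of the summed body length that was covered was 13.3% against 19.1% in K27R, 2.89% against 1.98% in K27M and 2.05% against 1.71% in EZHIP.

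K27R covered the whole body of 10 members (17.9%), and of 18.1% of all genes. These were Epha10, Epha8, Efna3, Sema4g, Sema5b, Sema6b, Slit1, Robo3, Robo4 and Unc5a. In K27M only Epha8 was covered whole, and in EZHIP none was. Sema4g was the member covered whole by K27R with no K27M or EZHIP interval at all. Over the long bodies of Epha5, Epha6, Ephb1, Sema5a, Sema6d, Slit3, Ntn1 and Unc5d, in contrast, each residual list covered under 2%.

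**Figure D4:**
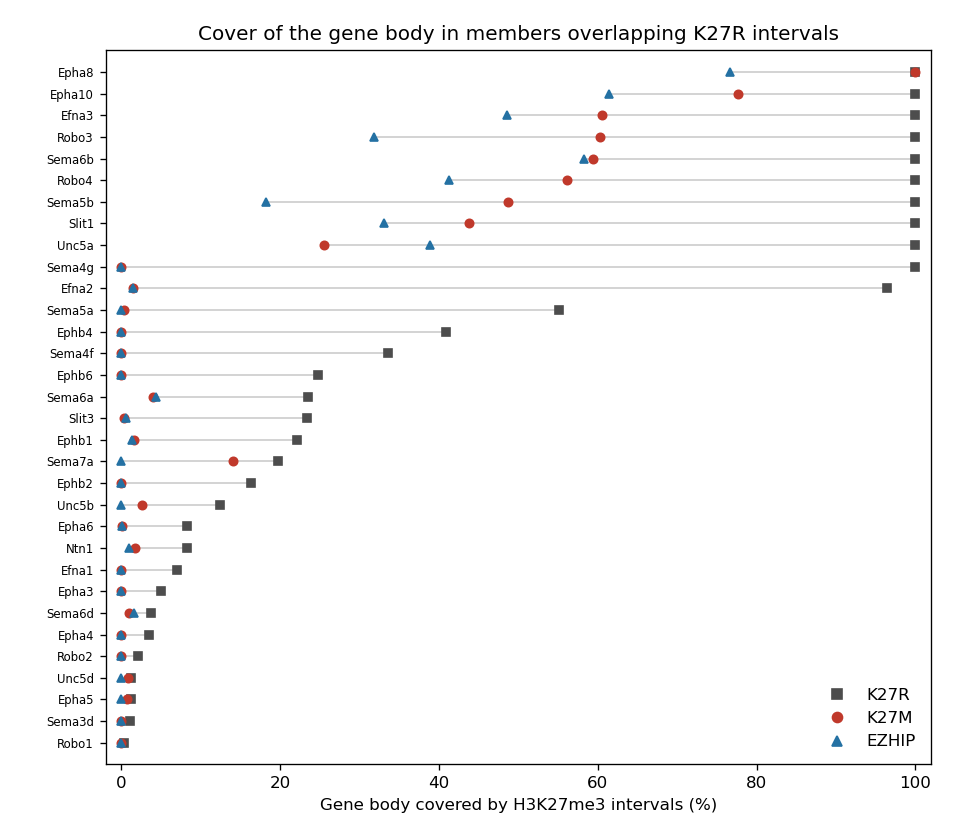
Percent of the gene body covered by K27R, K27M and EZHIP intervals in the 32 members that overlapped a K27R interval, sorted by K27R cover. Of the 10 members at 100% in K27R, Epha8 stayed at 100% in K27M and 76.6% in EZHIP and Sema4g had 0% in each.

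The residual intervals over the members' bodies were placed within those of K27R and near each other. K27M had 31 pairs of interval and gene in 21 members, of which 15 lay over the gene start, 2 over another coding start, 7 over other exons and 7 in introns. All 31 lay wholly inside K27R intervals, and 23 overlapped an EZHIP interval. EZHIP had 35 such pairs in 16 members, 12 over the gene start, 2 over another coding start, 10 over other exons and 11 in introns. Of these 31 overlapped a K27M interval and 23 lay wholly inside one. Such pairs were not counted over all genes, so these values cannot be read as particular to the members. At start sites, 1897 of 1901 K27M and 1689 of 1693 EZHIP start sites over all genes also lay in K27R.

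CpG content was measured in the 1 kb around the start site as the ratio of observed to expected CpG. The median was 0.678 over the 56 members and 0.560 over all genes. By class it was 0.644 in the 26 members in no list, 0.677 in the 14 in K27R only and 0.724 in the 16 kept in K27M or EZHIP. Over all genes the same classes had 0.620, 0.281 and 0.648. The K27R-only members thus differed most from other genes of their class, with 11 of 14 at a ratio of at least 0.6 (78.6%), against 19.2% of 3867 genes.

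Restricting all genes to that ratio changed the reading of the kept shares. Of 1998 genes marked in K27R with a ratio of at least 0.6, K27M kept 58.2% and EZHIP 50.3%. Of the 23 members so marked, K27M kept 11 (47.8%, interval 26.8 to 69.4%) and EZHIP 9 (39.1%, interval 19.7 to 61.5%). The members were therefore above the share of all genes and below the share of CpG-rich genes, with the latter inside the interval of each. This limit was chosen after earlier values had been seen. At the start site itself, 59.0% of the 39 CpG-rich members were marked in K27R, against 20.2% of 9905 CpG-rich genes.

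Inside the K27R intervals, CpG was denser where a residual interval remained. In the 17 K27R intervals over member start sites that held K27M, the retained sequence had a median of 21.8 CpG per kb and the rest 12.6, and the retained sequence was the denser in 15. All genes gave 19.9 and 10.6 CpG per kb, with 90.3% of 1709 intervals in that direction. For EZHIP the values were 22.2 and 12.6 CpG per kb in 13 intervals, denser in 11, and 19.3 and 10.7 over all genes, denser in 84.5% of 1734. The exceptions in each list were the interval of Unc5b and the interval that Epha8 and Ephb2 share.

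Members kept in both residual lists had wider K27R intervals by median than those in K27R only. The median was 21.6 kb for the 14 members in K27R only, 40.1 kb for the 16 kept in either list and 108.2 kb for the 11 kept in both, and over all genes it was 77.0, 107.1 and 131.8 kb. The members kept in a single residual list did not share this. Epha5, Epha6, Efna3, Unc5d and Sema6d had 20.2, 29.0, 23.0, 8.0 and 14.6 kb. The ranges overlapped throughout, from 7.4 to 256.2 kb in K27R only and from 4.4 to 326.0 kb among those kept in both. The classes also shared intervals. That of 157.6 kb counted for Epha8, kept in both, and for Ephb2, in K27R only. That of 108.2 kb counted likewise for Robo3 and Robo4. In the plot of CpG ratio against K27R width, members of different outcome lay side by side.

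**Figure D5:**
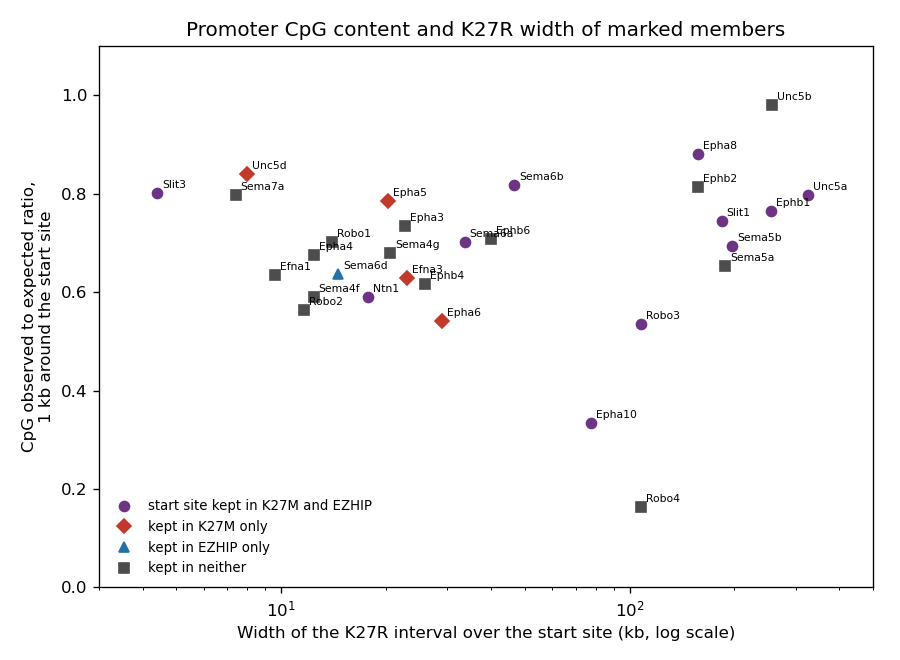
Ratio of observed to expected CpG in the 1 kb around the start site against the width of the K27R interval over it (kb, log scale) for the 30 marked members, by the lists that kept the start site. Unc5b, kept in neither, had the highest ratio (0.98) and the second-widest interval (256.2 kb), and Slit3, kept in both, the narrowest (4.4 kb).

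Other genes of the same pathways were counted as a list of 52, of which 51 were found. K27R held the start sites of 22 (43.1%), K27M of 15 (29.4%) and EZHIP of 11 (21.6%), against 28.2%, 8.93% and 7.96% of all genes. The same 11 were in both residual lists. The members had 53.6%, 26.8% and 21.4%. The receptor subunits differed among themselves. Neuropilins Nrp1 and Nrp2, which bind class 3 semaphorins, were in no list, as were Plxna1, Plxnb1, Plxnb2, Plxnd1 and the netrin receptor Neo1. Plxna2 had 28.2 kb in K27R and was kept in neither residual list. Plxna4 had 134.4 kb (K27R), 12.4 kb (K27M) and 8.0 kb (EZHIP), and Plxnc1, the receptor of Sema7a, had 190.4, 13.0 and 4.6 kb. Dcc, the attractive netrin receptor, had 7.8 kb in K27R, 7.0 kb in K27M and none in EZHIP.

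As sets of other signalling and adhesion genes, the Wnt ligands with Frizzled receptors and the classical and related cadherins were counted in the same way. Of 29 Wnt and Frizzled genes, K27R marked 19 (65.5%), K27M 11 (37.9%) and EZHIP 10 (34.5%), each a larger share than in the guidance members. Of 23 cadherins K27R marked 13 (56.5%), K27M 4 (17.4%) and EZHIP 2 (8.70%). The guidance members had 53.6%, 26.8% and 21.4%, and all genes 28.2%, 8.93% and 7.96%. Of the marked genes, K27M kept 68.2% in the other guidance genes (interval 45.1 to 86.1%), 57.9% in the Wnt and Frizzled genes (interval 33.5 to 79.7%), 50% in the guidance members and 30.8% in the cadherins (interval 9.09 to 61.4%). EZHIP kept 50% of the other guidance genes, 52.6% of the Wnt and Frizzled genes, 40% of the members and 15.4% of the cadherins (interval 1.92 to 45.4%). In each list the intervals of all 4 sets overlapped.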

How the data were processed

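H3K27me3 ChIP-Seq was deposited as 1 interval list per library for the K27R, K27M and EZHIP cells. By the labels and the study's methods, chromatin was crosslinked and digested with MNase, spike-in chromatin of another species was added, and reads were aligned to mm9 with Bowtie 1.0.0. Broad peaks were called by the authors with MOSAiCS-HMM in each library. Whether the spike-in entered the calls is not given in the sources used here. The deposited values were positions only (chromosome, start, end), with no score, count or depth.

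Positions were compared with GENCODE vM1 on NCBIM37 (mm9), and the last interval of each of the 19 autosomes ended within its chromosome. Symbols selected 57 records, and Efna5 had 2, of which the longer was used, leaving 56 genes. All 21418 protein-coding records were reduced to 21281 genes likewise. A start site was counted as marked when its base lay in an interval, and a gene body when at least 1 bp overlapped. Retained and remaining CpG densities were compared only where the interval left at least 1000 bp. Shares have 95% exact Clopper-Pearson intervals. No p-value was computed. Alternatives were a minimum width of 2000 or 5000 bp, merging of intervals up to 10000 bp apart, 1 member per K27R interval, start sites within 1000 or 5000 bp, any coding start, 10% or 50% of the body, the body without its first 5000 bp, and means. The members, lists and sets were chosen with earlier results of these data known. Every member was named by its class, with widths for kept members, for the 3 widest in K27R only, for residual intervals away from the start site and for shared intervals. Further values were added after they had been seen. Interval tools were tested on simulated data, with 0 disagreements over 2500 queries. Python 3.11.15, numpy 2.4.6, scipy 1.17.1 and matplotlib 3.10.9 were used.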

Additional observations from a re-analysis of the deposited data

How the results depend on the processing

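Of 88 alternative values of the main counts, shares, widths and body cover, 78 stayed within the limits set and 10 did not. The limits were 1.5 times for counts and width ratios, the Clopper-Pearson interval for shares, and an order-statistic interval of 0 to 12.4% for the median K27R body cover. No paired analysis was possible because each group had 1 library, and no library could be left out. Gene body values depended on how the body was measured. With at least 10% of the body covered K27R had 21, K27M 10 and EZHIP 9, and with at least 50% they were 12, 6 and 3. K27M bodies numbered 13 with intervals of at least 5000 bp, and likewise 13 when the first 5000 bp of the gene were left out. Merging intervals up to 10000 bp apart brought the ratio of K27R to EZHIP width to 5.18, from 8.29, and the cause was not tested. The mean K27R cover of the body was 25.2%, where the median was 1.66%, and without the first 5000 bp the median was 0%. Without the classes 3 and 4 semaphorins, a choice made after the values were seen, K27M kept 53.6% and EZHIP 42.9% of marked members.

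Single start sites changed in 22 of 119 alternative values. A minimum width of 5000 bp removed Slit3 from K27R, Epha5, Epha6, Slit3 and Ntn1 from K27M, and Sema6d and Ntn1 from EZHIP. A distance of 1000 bp added Efna2 and Sema3d to K27R, Sema7a and Unc5b to K27M, and Efna3 to EZHIP. At 5000 bp Ephb3 was added to K27R, Sema5a and Robo4 to K27M, and Robo4 to EZHIP. By any coding start, Sema6d was added to K27M. The unknown depth of the libraries limits every count of unmarked sites.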
